A study of Mus musculus with 3 samples.

Results

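The cytoplasmic ribosomal protein genes encode the protein parts of the large and small subunits of the ribosome, the particle that translates mRNA in the cytosol. Members were the RefSeq protein-coding mouse genes whose symbol is Rpl or Rps followed by a digit, with Rplp0, Rplp1, Rplp2 and Rpsa and without the Rps6k kinases. The rule took 89 of 21631 protein-coding genes on the 19 autosomes and chromosome X. By symbol alone, 54 were counted with the large subunit and 35 with the small subunit. The rule also took Rps19bp1, which encodes a protein that binds Rps19 and is not part of the ribosome, and the retrogene Rps23rg1. Both are counted with the small subunit. The rule did not take Fau, whose product is a ribosomal protein fused to a ubiquitin-like sequence. Binding of the T-box factor TBX5, which acts in the developing heart, forelimb and lung mesenchyme, was measured by ChIP-seq (sequencing of DNA precipitated with an antibody) in E14.5 lungs of the outbred mouse stock CD-1. No genotype or treatment is given, and no expression values were used. There were 2 libraries made with a TBX5 antibody, each from 1 whole lung, and 1 input library. All 3 titles name lung, while the source field names heart for the second ChIP library and the input. The data used were 1 deposited list of 28381 peaks on build mm10, with no value for any single library, so no spread between libraries could be measured and the depth is unknown.

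Ribosomal protein genes are transcribed in every nucleated cell, and many of their mRNAs start with a C and a run of pyrimidines, the 5′ terminal oligopyrimidine (TOP) motif, through which their translation follows growth signals. Their promoters are known for ETS and YY1 motifs and GC boxes close to the start. T-box factors bind DNA that holds the letters AGGTGT or a close relative. In this list each peak has a summit, the base of highest signal. The authors' peak caller gave it a fold enrichment (signal at the summit divided by the local background) and the −log10 of a q-value. A peak is said to lie at a gene end when its summit was at most 1 kb from either annotated end of the gene. The 5000 peaks with the highest −log10 q, all at 21.35 or more, are called strong.

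The promoters shown here are those of 7 members with a peak and of Rplp0, which had none at its ends, from 250 bases before the annotated start to 30 bases after it. Rpl27, Rpl37 and Rpl34 are shown because their peaks were strong, and Rpl28 and Rpl31 because they are the other members with a peak and the letters AGGTGT in the promoter. Rps3a1 and Rps26 carried the highest peaks, by −log10 q, of members with a printed window that holds the summit and no AGGTGT. The sequences are from RefSeq, assembly GRCm38.p6, and are read 5′ to 3′ on the strand of the gene, with AGGTGT or its reverse complement ACACCT in capitals. Rpl27 and Rpl31 were added to the set after their values had been seen.
Rpl27, chr11:101441995-101442274, plus strand: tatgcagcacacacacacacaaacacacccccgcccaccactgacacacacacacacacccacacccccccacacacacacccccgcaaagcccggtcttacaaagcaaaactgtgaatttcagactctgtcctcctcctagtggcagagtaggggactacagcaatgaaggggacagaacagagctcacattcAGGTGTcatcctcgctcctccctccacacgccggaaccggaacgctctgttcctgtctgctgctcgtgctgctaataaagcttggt
Rpl37, chr15:5116363-5116642, plus strand: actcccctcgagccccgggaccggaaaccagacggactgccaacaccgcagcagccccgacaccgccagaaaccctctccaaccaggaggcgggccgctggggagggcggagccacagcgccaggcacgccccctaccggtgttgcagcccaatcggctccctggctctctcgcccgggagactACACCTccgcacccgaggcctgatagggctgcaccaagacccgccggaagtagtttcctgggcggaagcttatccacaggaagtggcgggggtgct
Rpl34, chr3:130730369-130730648, minus strand: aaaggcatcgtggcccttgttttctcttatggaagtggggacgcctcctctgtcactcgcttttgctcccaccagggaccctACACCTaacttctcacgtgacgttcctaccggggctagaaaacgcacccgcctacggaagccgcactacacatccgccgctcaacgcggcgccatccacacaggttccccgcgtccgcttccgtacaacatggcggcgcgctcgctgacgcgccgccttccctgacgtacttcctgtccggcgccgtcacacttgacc
Rpl28, chr7:4792715-4792994, plus strand: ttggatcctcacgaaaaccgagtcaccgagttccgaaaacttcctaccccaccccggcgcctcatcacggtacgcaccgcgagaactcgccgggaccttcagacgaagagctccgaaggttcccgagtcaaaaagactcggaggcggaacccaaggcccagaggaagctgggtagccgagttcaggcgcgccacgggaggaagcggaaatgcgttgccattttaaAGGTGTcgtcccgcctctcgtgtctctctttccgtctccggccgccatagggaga
Rpl31, chr1:39367601-39367880, plus strand: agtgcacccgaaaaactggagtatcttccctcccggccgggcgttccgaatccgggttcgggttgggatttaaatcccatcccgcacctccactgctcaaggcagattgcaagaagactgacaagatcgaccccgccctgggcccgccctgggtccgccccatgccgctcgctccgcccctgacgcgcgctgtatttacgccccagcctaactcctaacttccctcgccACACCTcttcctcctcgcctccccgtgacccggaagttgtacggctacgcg
Rps3a1, chr3:86142639-86142918, minus strand: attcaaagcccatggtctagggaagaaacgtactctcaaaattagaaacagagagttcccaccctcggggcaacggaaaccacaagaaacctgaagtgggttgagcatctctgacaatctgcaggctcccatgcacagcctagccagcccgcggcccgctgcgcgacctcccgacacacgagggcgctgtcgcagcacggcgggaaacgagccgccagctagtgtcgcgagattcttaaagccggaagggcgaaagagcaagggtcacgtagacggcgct
Rps26, chr10:128626477-128626756, minus strand: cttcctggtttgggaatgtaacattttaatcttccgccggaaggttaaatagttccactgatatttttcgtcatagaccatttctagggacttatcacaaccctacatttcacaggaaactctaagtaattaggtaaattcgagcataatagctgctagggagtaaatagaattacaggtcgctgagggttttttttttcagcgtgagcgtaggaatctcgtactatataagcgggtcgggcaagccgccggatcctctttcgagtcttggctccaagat
Rplp0, chr5:115559217-115559496, plus strand: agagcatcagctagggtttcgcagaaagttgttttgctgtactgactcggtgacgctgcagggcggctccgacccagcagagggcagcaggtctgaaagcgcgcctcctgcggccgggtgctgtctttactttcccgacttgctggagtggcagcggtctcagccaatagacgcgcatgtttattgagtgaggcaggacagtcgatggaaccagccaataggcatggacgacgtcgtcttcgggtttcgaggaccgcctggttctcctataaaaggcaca

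Of the 89 genes, 35 (39.3%, exact 95% binomial interval 29.1 to 50.2%) had a TBX5 peak at an end and 54 did not. Among all protein-coding genes the share was 22.6% (4880 of 21631). The interval covers counting error only, and genes are not independent samples. Ribosomal protein genes are short, with a median length of 3183 bp, and in protein-coding genes under 10 kb the share was 15.2%, while 39.1% of the members under 10 kb had a peak. This comparison limits length alone. Short genes include classes with almost no peaks, such as olfactory receptors (median length 950 bp, 2 of 1110 with a peak). Among genes with 20 or more CpG dinucleotides in the promoter, treated below, 41.5% of members and 42.2% of all genes had a peak at the start. The 35 genes shared 40 peaks, of which 29 genes had 1 and 6 genes had 2. In the large subunit 20 of 54 genes (37.0%) had a peak at an end, and in the small subunit 15 of 35 (42.9%). The intervals of these shares, 24.3 to 51.3% and 26.3 to 60.6%, overlap, and the difference was not tested.

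Most of the peaks were weak. The median fold over the 40 peaks was 5.38 (interval of the median 5.02 to 5.88, quartiles 4.63 and 7.02, range 3.03 to 15.6), beside 5.49 over all 4981 peaks at ends of protein-coding genes and 6.27 over the whole list. Of these, 4 (10%) reached 10-fold, as did 8.65% of all gene-end peaks and 21.2% of all peaks. By −log10 q, 14 of the 40 (35%) stood in the upper 50% of the list, against 41.6% of gene-end peaks. Between 60 and 80% of the way down the list lay 15 of them (37.5%), against 22.9% of gene-end peaks. The other parts of the list did not show this. From 40 to 60% the shares were 10% and 21.7%, and from 80 to 100% they were 22.5% and 25.0%. In the first 20% they were 10% and 9.56%, and from 20 to 40% they were 20% and 20.8%. At their ends, 4 of the 89 genes (4.49%) had a strong peak, where the share over all protein-coding genes was 2.07%. The share of the members rests on these 4 genes, and the difference was not tested.

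**Figure D1:**
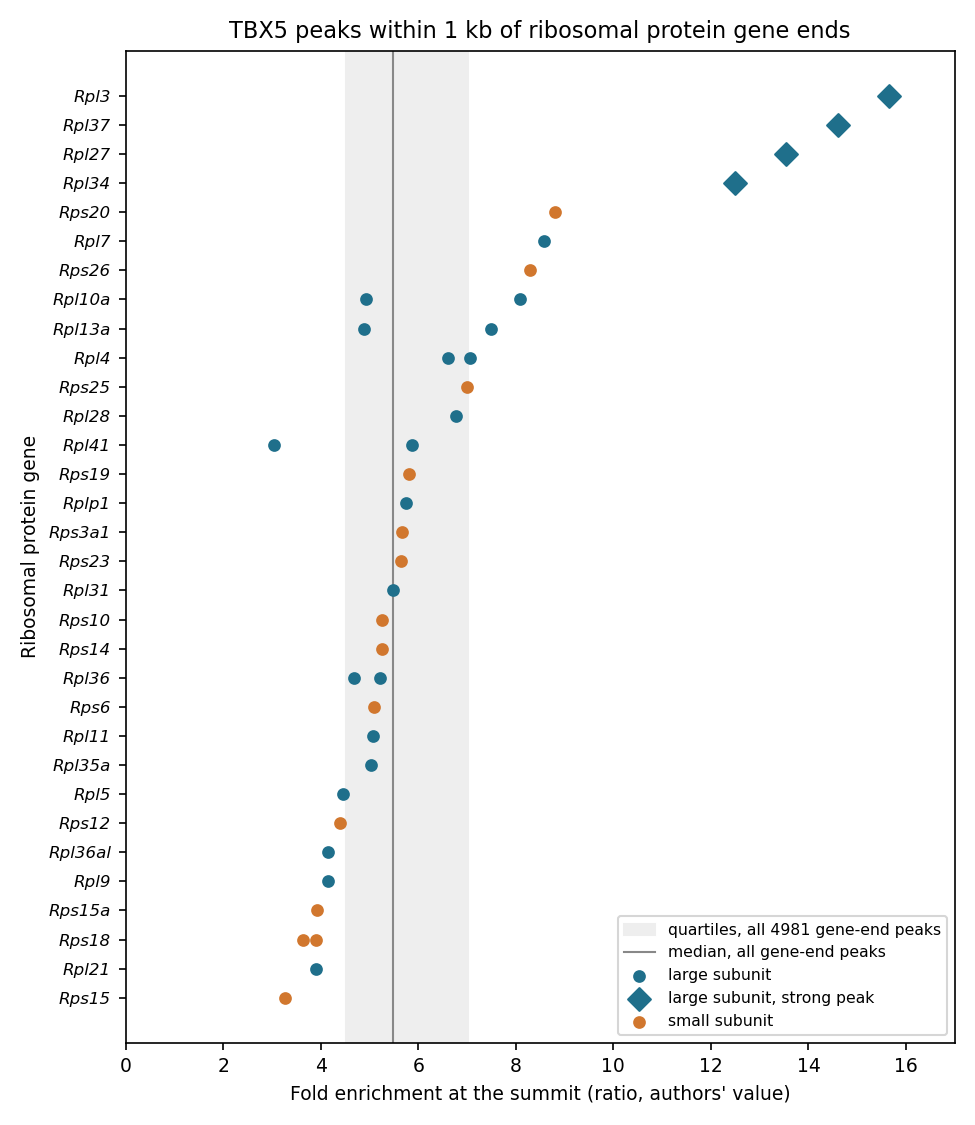
Fold enrichment at the summit (horizontal axis, ratio) of TBX5 peaks within 1 kb of an end of a ribosomal protein gene, for the genes reported by name (vertical axis, ordered by the highest fold), in blue for the large and orange for the small subunit, diamonds for strong peaks. The grey line and band are the median (5.49) and quartiles of all 4981 gene-end peaks. Rpl3, Rpl37, Rpl27 and Rpl34 stand apart at 12.5-fold or more, and the next gene, Rps20, is at 8.81-fold.

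The 4 strong peaks all lay at ends of genes of the large subunit (4 of 54 genes), and 0 of 35 genes of the small subunit had one. These counts are small, and the difference was not tested. Rpl3, whose product lies close to the peptidyl transferase centre, had the highest, 15.6-fold with a −log10 q of 42.9, on chromosome 15 from 80083278 to 80083629. Its summit was 27 bp outside the higher coordinate end of the gene, and its rank was 2013 in the list of 28381. Rpl27 followed with 13.5-fold (−log10 q 30.7) on chromosome 11 from 101441941 to 101442712, with the summit 65 bp after the start. For Rpl37 the fold was 14.6 (−log10 q 29.2) on chromosome 15 from 5116069 to 5116678, with the summit 119 bp before the start. That summit was nearer to the neighbouring gene Card6, 68 bp from its end, so the peak cannot be given to Rpl37 alone. Rpl34 had 12.5-fold (−log10 q 26.3) on chromosome 3 from 130730295 to 130730759, with the summit 67 bp before the start. All 4 were well below the highest gene-end peak of the list, which had 45.9-fold.

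Below these came peaks of 6.77 to 8.81-fold, some with a weaker peak beside them. Rps20, which lies in the head of the small subunit, had 8.81-fold on chromosome 4 from 3835571 to 3835857, and its summit was 42 bp from a gene end. Rpl7 had the widest peak of the set, 994 bp, with 8.58-fold on chromosome 1 from 16104475 to 16105468. Rps26, a protein near the mRNA exit channel, had 8.29-fold with the summit 228 bp before the start. Rpl10a had a peak of 8.09-fold 242 bp after a listed start and another of 4.93-fold 137 bp before another listed start. Rpl13a had a peak of 7.50-fold 967 bp from its last base and another of 4.89-fold 48 bp after its start. Rpl4 had 7.07-fold 57 bp after its start and 6.61-fold 994 bp before it. Rps25 was at 7.003-fold, Rpl28 at 6.77-fold and Rps3a1, with a lower fold but a −log10 q of 12.8, at 5.66-fold, with summits 264 bp before, 25 bp after and 48 bp before the start.

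Several members with well-known roles had peaks near the median fold, or none. In the acidic stalk, which recruits translation factors, Rplp1 had a peak of 5.75-fold, while Rplp0 and Rplp2 had none at an end. Rpl5 and Rpl11, which carry the 5S rRNA into the large subunit and bind Mdm2 when assembly fails, had 4.46-fold and 5.08-fold, with summits 74 bp and 225 bp after the start. Rps6, the substrate of the S6 kinases, had 5.08-fold 18 bp after its start. Rps14, Rps23, Rps10 and Rpl35a lay between 5.02 and 5.65-fold. Rpl10, a late-joining protein of the large subunit, and Rpsa, on the back of the small subunit and also known as the laminin receptor, had no peak at an end. The nearest summits were 32.0 kb from Rpl10 and 9.99 kb from Rpsa. In a partial list of 18 genes in which mutations are known to cause Diamond-Blackfan anaemia in people, 8 had a peak (44.4%, 21.5 to 69.2%): Rps19 (5.80-fold, 449 bp before the start), Rps10, Rps26, Rpl5, Rpl11, Rpl35a, Rpl27 and Rpl31. The share is near that of all members.

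The weakest peaks reached the bottom of the list. Rps15 had 3.26-fold and a −log10 q of 1.82, rank 28277 of 28381, with its summit 16 bp after the start. Rps15a had 3.92-fold, Rpl21 3.91-fold, and Rps18 peaks of 3.91 and 3.63-fold, all with a −log10 q under that of Rpl36al and Rpl9 (4.73 each, 4.15-fold). Rps12 was at 4.39-fold, 3 bp from the annotated end and 171 bp before the listed start. The summit of Rps15a was 85 bp after the start.

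Of a list of paralogues together with Rps19bp1, 1 of 9 had a peak. Rpl36al, a paralogue of Rpl36a, had 4.15-fold, but the summit was nearer to Mgat2 (14 bp) than to Rpl36al (77 bp). Rpl3l, of heart and skeletal muscle, and Rpl10l and Rpl39l, of the testis, had none, and neither did Rpl22l1, Rpl7l1, Rps27l, Rps27rt and Rps19bp1. Without these genes 42.5% of the other 80 members had a peak, and 44.2% of 77 without the retrogenes Rpl32l, Rpl37rt and Rps23rg1 as well. Fau had no peak at an end. On chromosome X, 0 of 4 members (Rpl10, Rpl36a, Rpl39 and Rps4x) had a peak, and the share of all protein-coding genes there was 6.94%.

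The peaks lay mostly at the starts of the genes. The promoter table gave the start and strand of 69 members. Of 30 gene and peak pairs with a known strand, 27 (90%, exact 95% binomial interval 73.5 to 97.9%) were nearer to the start and 3 to the last base. The share over all protein-coding genes was 90.3% (4145 of 4588 pairs). The 3 exceptions were the peak of 7.50-fold at Rpl13a, a peak of 3.63-fold at Rps18 that was 172 bp from B3galt4, and a peak of 3.03-fold at Rpl41 that was 256 bp from Zc3h10. All 3 peaks were nearer to an end of another protein-coding gene, which for Rps18 and Rpl41 is the gene just named. Rpl41 had its other peak, of 5.88-fold, 22 bp after the start.

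Most summits were within 250 bp of the start. Over 25 members the median distance to the start was 74 bp (interval of the median 48 to 141 bp), and over all genes with a peak within 1 kb of a known start it was 109 bp, which is inside the interval. Of 29 pairs within 1 kb of a listed start, 25 (86.2%) were within 250 bp, as were 67.0% of 4722 pairs over all genes. Before the start lay 16 and after it 13, so 55.2% were before it, against 56.3% for all genes. Counting starts alone, 27 of 69 members (39.1%) had a peak within 1 kb, and 23.2% of 17274 genes did. Of these 27, Rpl22 and Rps2 were not among the 35, because the listed start lies inside the annotated gene. Their peaks had 5.91-fold 78 bp after a listed start and 5.88-fold 108 bp before one, and were 1368 bp and 1834 bp from the nearest annotated end.

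**Figure D2:**
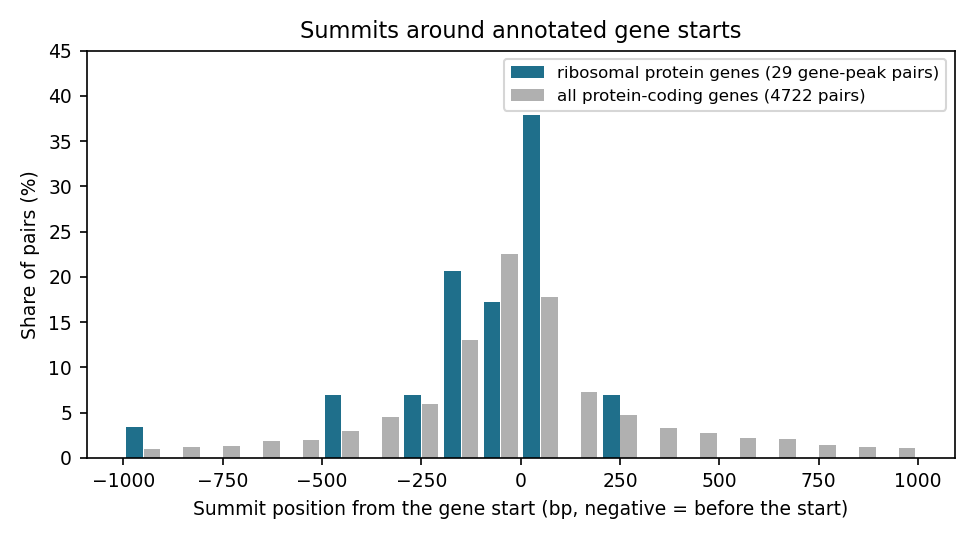
Summit position in bp from the annotated gene start (horizontal axis, 100 bp bins, negative values before the start) and the share of gene and peak pairs in each bin in percent (vertical axis), in blue for 29 pairs of ribosomal protein genes and in grey for 4722 pairs of all protein-coding genes. In the first 100 bp after the start lie 37.9% of the ribosomal protein pairs (11 pairs) and 17.8% of all pairs. The bins on each side of it go the other way, with 17.2% against 22.5% just before the start and 0% against 7.26% from 100 to 200 bp after it. From 200 to 100 bp before the start the shares are 20.7% and 13.1%.

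Some members lay close to another gene, counted at either end and without regard to strand. Of the 89 members, 32 had the end of another protein-coding gene within 1 kb of an end, and 12 of these 32 (37.5%) had a peak, as did 23 of the other 57 (40.4%). Of the 40 peaks, 13 were within 1 kb of an end of another protein-coding gene as well, and in 10 pairs that end was the nearer one. Neither these counts nor the 32 of 89 were made over all genes, so they cannot be called high or low. The higher peak of Rpl4 was near Zwilch and that of Rpl35a near Iqcg, but both were nearer to the member. The second peak of Rpl4 was nearer to Zwilch (711 bp against 994 bp). The pairs with a nearer neighbour included Rps25 with Trappc4 (98 bp against 264 bp), Rpl9 with Lias (79 bp against 145 bp) and Rpl36 with Micos13 (88 bp against 411 bp, at 5.22-fold). Rpl36 had a second peak of 4.68-fold, 830 bp from its end and 881 bp from Lonp1. When each peak was given to the nearest gene end alone, 33.7% of members had one, and 19.8% of all genes. Small nucleolar RNA genes, which sit in introns of many ribosomal protein genes, split the members about evenly: 12 of 30 members with such a gene inside had a peak (40%), and 23 of 59 without (39.0%).

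Close to the limit of 1 kb, the outermost summits counted were those of Rpl4 (994 bp), Rpl13a (967 bp) and Rpl36 (830 bp), each a gene with another, nearer peak. The nearest not counted and outside the gene were those of Rps16 (1120 bp, 5.65-fold), Rpl15 (1268 bp, 4.24-fold) and Rplp0 (1561 bp, 5.72-fold). Over the 54 members without a peak at an end, the nearest summit was a median of 24.8 kb from the gene body, 12 had one within 5 kb, and Rps24 was farthest from any, at 237 kb. Rps3 had a peak of 11.0-fold 2.93 kb away. The lack of a peak says only that none passed the authors' caller.

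The promoters of the members were rich in CpG, and the share with a peak rose with the CpG count over the genome. For each gene the CpG dinucleotides in the 300-base promoter were counted, taking the highest count where several starts were listed. The median was 21 over the 69 members, 15 over 17274 protein-coding genes, and 26 over the 4003 genes with a peak at a start. With under 10 CpG 3.62% of all genes had a peak at the start, with 10 to 19 24.5%, with 20 to 29 37.0% and with 30 or more 48.9%. The members had 0 of 5, 10 of 23 (43.5%), 11 of 31 (35.5%) and 6 of 10 (60%) in the same classes. With 20 or more CpG, 17 of 41 members (41.5%) had a peak at the start and 42.2% of all such genes did, so at that CpG count the share of the members was no higher than the background. The comparison by CpG count was chosen after the data had been seen, and the part of CpG content in the share of the members was not tested.

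**Figure D3:**
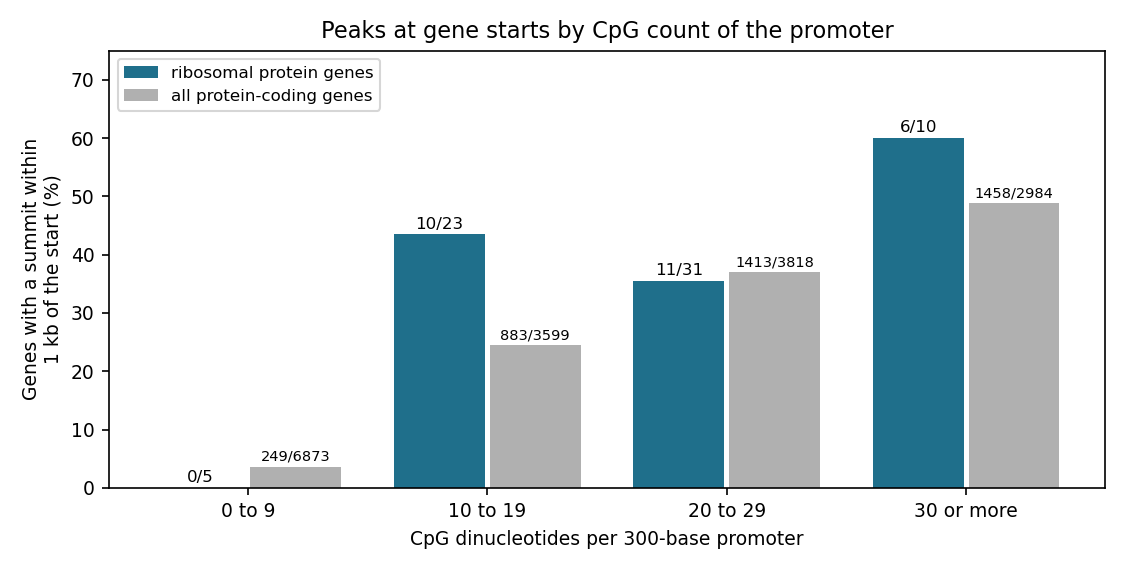
Share of genes with a TBX5 summit within 1 kb of the start in percent (vertical axis) by the number of CpG dinucleotides in the 300-base promoter (horizontal axis), in blue for the 69 ribosomal protein genes with a known start and in grey for all 17274 protein-coding genes with one; numbers above the bars are genes with a peak and genes in the class. The grey bars rise from 3.62% to 48.9%, and the blue bar is above the grey one with 10 to 19 CpG (43.5% against 24.5%) and with 30 or more (60% against 48.9%) and below it in the other classes.

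In the promoters printed above, the letters AGGTGT occurred in those of all 3 strong peaks with a known start. They do not set these 3 genes apart from the other motifs searched. Over all listed starts and the full 300 bases, the ETS letters CCGGAA and the GC box GGGCGG were each in all 3 as well. The letters AGGTGT lay 56 bp before the start of Rpl27, 66 bp before that of Rpl37 and 168 bp before that of Rpl34, and 121, 53 and 101 bp from the summits. In Rpl28 they lay 25 bp before the start and 50 bp from the summit. In Rpl31, a peak of 5.49-fold with its summit 21 bp before the start, the first letter of ACACCT was the summit base itself. Each position is that of the first letter on the strand of the gene. Over the members with a known start, 5 of 25 with a peak (20%) and 6 of 44 without (13.6%) held AGGTGT on either strand of the promoter, beside 14.8% of all protein-coding genes and 13.4% of those with a peak at the start. Among the 328 genes of the whole list with a strong summit within 1 kb of the start, 59 (17.99%) held it. Some of those summits lie outside the 300 bases searched, and of the 171 genes with a strong summit inside them 36 (21.05%) held it. The longer AGGTGTGA, which contains AGGTGT, was in none of the 69 members and in 1.37% of all genes. These matches describe letters in a window of 300 bases and are not shown to be bound sites. Of the 6 members without a peak at an end that held the letters, Rpl22 had its peak at an inner start.

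Of the other motifs searched, all but the TATA letters and the longer T-box letters were found in members with a peak and in members without. The ETS letters CCGGAA were in 14 of 25 members with a peak (56%) and 22 of 44 without (50%), beside 21.2% of all genes, and they stand in the printed promoters of Rpl27, Rpl37, Rpl31, Rps3a1 and Rps26. The GC box GGGCGG was in 14 of 25 and 27 of 44 (61.4%), beside 49.8% of all genes and 75.1% of genes with a peak at the start. The YY1 letters AAGATGGC were in 3 of 25 and 3 of 44, beside 3.59%, and the CRE letters TGACGT in 3 of 25 and 9 of 44, beside 9.72%. The TATA letters TATAAA were in 0 of 25 members with a peak and in 8 of 44 without (18.2%), beside 14.9% of all genes and 8.09% of those with a peak at the start. The 8 include Rpl22 and Rps2, whose peaks at inner starts were not at a gene end. A start at a C followed by 4 or more pyrimidines, the form of a TOP mRNA, was listed for 15 of the 69 members (21.7%), 6 of 25 with a peak and 9 of 44 without, and for 2.70% of all genes. Only the listed first base was read, so a start annotated a few bases off was missed. The count is therefore not the number of members with TOP mRNAs. All motifs were searched on both strands, except the TOP form, and a gene with several listed starts counted once.

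Other genes of translation had peaks at 32 to 63.2% of genes, depending on the list, and olfactory receptor genes, a class silent in most tissues, almost never. The share was 63.2% (12 of 19) for other genes with TOP mRNAs, such as those of the elongation factors Eef1a1 (4.82-fold) and Eef2 (3 peaks, up to 6.28-fold) and of Nap1l1 (10.5-fold), a histone chaperone. It was 40% (8 of 20) for the cytoplasmic aminoacyl-tRNA synthetases, 32% (8 of 25) for ribosome biogenesis factors and 39.7% (31 of 78) for mitochondrial ribosomal proteins, encoded in the nucleus and with a strong peak in 7 genes. Of 1110 olfactory receptor genes, 2 (0.18%) had a peak. None of the other TOP mRNA genes, synthetases or biogenesis factors had a strong peak. These shares stand side by side without a test, and the lists differ in gene length (medians from 950 bp for the olfactory receptors to 26970 bp for the synthetases).

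**Figure D4:**
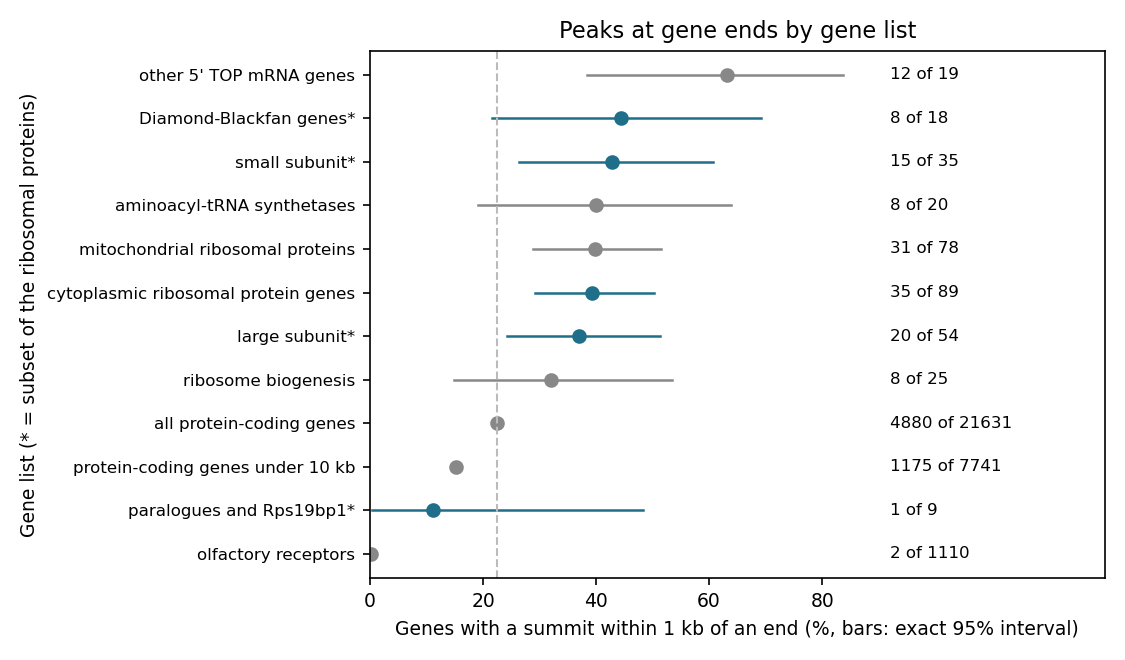
Share of genes with a TBX5 summit within 1 kb of a gene end in percent (horizontal axis) for each gene list (vertical axis), with exact 95% binomial intervals as bars, the numbers of genes at the right, and a dashed line at the share of all protein-coding genes. Points in blue are the ribosomal protein genes (39.3%) and their subsets, and the intervals of all lists of translation genes overlap that of the ribosomal protein genes.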

How the data were processed

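TBX5 ChIP-seq of E14.5 CD-1 lung was represented by 1 deposited peak list in the layout that MACS2 writes. Per the submitters' processing notes, reads were handled with Bowtie2, SAMtools and MACS2 on build mm10. Versions, settings, pooling of the libraries and the role of the input: not given in the sources used here. Fold enrichment (a ratio), −log10 q and the score are the authors' deposited values per peak, read by the position of their columns. The score and the −log10 p were not used. By its name the list is free of blacklisted regions, and 23 of the peak numbers up to 28404 were absent. Fold depends on library depth, which is unknown, so folds were compared only between peaks of the same list.

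Gene ends came from a RefSeq gene table, and starts, strands and sequences from a RefSeq promoter table (both GRCm38.p6; 17274 protein-coding genes and 69 of 89 members matched by gene ID). All positions are 1-based. Summits were counted within 1 kb of either end of a gene with Python 3.11.15, pandas 2.3.3 and scipy 1.17.1, after a check on simulated data with known answers. Shares carry exact 95% binomial intervals and medians intervals from order statistics; no test across genes was made. The 27 alternatives covered other windows, peak subsets, gene sets and gene starts, of which 2 were added after the data had been seen. Members and lists were chosen with earlier results of these data known. Named genes were those with the highest and lowest −log10 q, with 2 peaks, beside another gene or at the 1 kb limit, and a set of genes always given; the others were named after their values had been seen. Of the lists, all names matched by symbol or synonym except Rps4l among the paralogues, which is left out. A few genes enter the counts and are not reported here by name.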

Additional observations from a re-analysis of the deposited data

How the results depend on the processing

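The results were recomputed under 27 alternatives in all, each bearing on 1 result, and in 23 the value stayed within its 95% interval. The share of ribosomal protein genes with a peak at a gene end was 52.8% with a window of 5 kb (31.9% of all genes) and 15.7% with only the upper 50% of peaks by −log10 q (10.2% of all genes). The share with a strong peak was 0% with the 1000 highest peaks (0.24% of all genes) and 12.4% with the 10000 highest (6.18%). The share of members with a peak at an end was above that of all genes compared in the same way in 13 of 14 alternatives; the exception was the comparison limited to promoters with 20 or more CpG (41.5% against 42.2%), chosen after the data had been seen. The median fold, the share of peaks nearer to the start and the distance to the start stayed within their intervals in all alternatives tried for them. No library could be left out, because the list gives no value per library. No paired analysis was possible because the result comes from no test. Whether each peak was present in both ChIP libraries cannot be read from the list, and with the depth unknown a gene without a peak may hold signal below the threshold of the caller.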
